A study of Mus musculus with 6 samples.

Results

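The assays described here are those of mouse miRNAs with late names, from miR-1186 upwards. They were chosen by name alone: every mouse row of the deposited threshold cycle table whose name lies from miR-1186 to miR-2199, except the names with miR-1224, miR-1839, miR-1897, miR-1904, miR-1937, miR-1981, miR-2134, miR-2138 and miR-2146. This gave 74 of the 596 miRNA assays, all of them in the second block of rows (pool B, 261 assays). TaqMan RT-PCR was run on macrophages grown from bone marrow of 3 mice with wild-type Dicer (LysM-Cre/Dicerwt/wt/Apoe-/-, WT) and 3 mice with floxed Dicer (LysM-Cre/Dicerflox/flox/Apoe-/-, KO). All mice were male, 6 to 8 weeks old and without Apoe, and all carried LysM-Cre, a driver active in myeloid cells. The cells were grown for 7 days with L929-conditioned medium, a source of macrophage colony-stimulating factor, and each sample was labelled as a biological replicate. The panel had no assay of Dicer mRNA, so deletion was not checked at the targeted gene.

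A mature miRNA is cut from a hairpin precursor: Drosha with its partner Dgcr8 frees the hairpin in the nucleus, and Dicer removes the loop in the cytoplasm. Loss of Dicer is therefore expected to lower mature miRNAs, whereas small RNAs from other routes, such as fragments of tRNA or rRNA, do not need it. Late numbers were given to sequences found by deep sequencing, many of them of low abundance and some later withdrawn from the registry. The comparison asked which of these assays behaved as those of Dicer products do. As a reference for such behaviour, let-7i fell 5.94-fold in KO (log2 -2.57 ± 0.54, SE, n = 3 per group, limma adjusted p = 0.0312). The other reference, miR-223, fell 3.75-fold (log2 -1.91 ± 0.58, SE, n = 3 per group, limma adjusted p = 0.0445). Both references are assays of the first block of rows (pool A) and were scaled to its controls, whereas all members are in pool B. The other assays of pool B are therefore set beside the members below.

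A mature sequence of RefSeq (GRCm38.p6) was matched by name and kept for 50 of the 74 assays. Of these, 12 name no arm although the hairpin has an entry with an arm in its name. The count is of matches kept and not of all that RefSeq holds. The assays miR-1982.1 and miR-1982.2 are outside the 50, although their hairpin, printed below, has mature arms. The following sequences are those on which the comparison turns, 5′ to 3′, with the seed (bases 2 to 8) in capitals. The first group belongs to the 3 assays that fell past the test. The names miR-1930 and miR-1306 give no arm, so both arms are shown.
miR-1930-5p: aCCUCCAUaguaccugcagcgu
miR-1930-3p: gGUGCAGUuacuguggcugugg
miR-1306-5p: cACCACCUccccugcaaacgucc
miR-1306-3p: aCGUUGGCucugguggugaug
miR-1932: gUUGCGGAcagcgcuaggucgg

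The second group belongs to assays measured in all 6 samples at differences near 0.
miR-1905: cACCAGUCccaccacgcgguag
miR-1896: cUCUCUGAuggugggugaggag
miR-1894-3p: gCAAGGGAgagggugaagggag

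The third group belongs to the 2 tested assays below Ct 35 in every WT sample and in no KO sample.
miR-1969: aAGAUGGAgacuuuaacaugggu
miR-1953: uGGGAAAGuucucaggcuucug

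The last group holds members that share their seed with a family known from other work. The seed of miR-1928 is that of miR-221-3p and miR-222-3p, and the seed of miR-1961 is that of the let-7 family with miR-98.
miR-1928: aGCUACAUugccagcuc
miR-1961: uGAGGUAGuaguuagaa

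None of the other sequences printed here shared its seed with another mature entry of the table. Of the 10 tested assays matched by full name, 1 had U as its first base (miR-1953), against 41.3% of the 1738 mature entries of the table. Argonaute proteins favour U at that position. Among all 61 matched sequences of the members, 22 started with U. The miR-1930 hairpin lies at chr10:77641224-77641307 on the plus strand, within the span (strand not considered, here and for other genes) of Ube2g2, a gene for a ubiquitin-conjugating enzyme. The miR-1306 hairpin lies at chr16:18284239-18284317 on the minus strand, within the span of Dgcr8, the gene for the partner of Drosha, and miR-1932 at chr11:119390472-119390561 on the plus strand, within the span of the ubiquitin ligase gene Rnf213. Of the 26 members that could be tested, 20 had a gene entry, and 15 of these lay inside the span of a protein-coding gene.

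The amount of RNA assayed was read from 5 endogenous small RNA controls in each pool. In pool B their mean Ct stood at 21.1, 19.3 and 19.0 for WT replicates 1 to 3, and for KO at 22.1, 19.3 and 19.3 (exact permutation p = 0.7, two-sided, where 3 samples against 3 cannot give less than 0.1). KO replicate 1 had the latest controls. The myeloid miR-223 was at Ct 16.5, 15.3 and 15.0 in WT and 20.4, 16.9 and 16.9 in KO. The muscle miR-1 and the liver miR-122 did not amplify in any sample, though the deposited tables disagree on the name miR-1, as described below. Of the other miRNAs taken as markers, the lymphocyte miR-150 and the mesenchymal miR-143, miR-145 and miR-199a-3p were below Ct 35 in 6 samples, the endothelial miR-126-3p in 5, erythroid miR-451 in 3, muscle miR-133a in 2 and neural miR-124 in 1. Their part in the results was not tested. In bulk samples, fewer cells of a type and less of a miRNA per cell cannot be told apart.

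Many members were not seen in these macrophages. At a ceiling of Ct 35, 31, 31 and 34 of the 74 members were detected in the WT samples, a mean of 32.0 ± 1.73 (SD, n = 3). The KO samples gave 14, 26 and 28, a mean of 22.7 ± 7.57 (SD, n = 3). No KO sample reached the lowest WT count, and KO replicate 1 stood well below the other samples. Over all 596 assays the counts were 307, 308 and 309 in WT and 219, 277 and 290 in KO. There were 34 members (45.9%) at Ct 35 or later in all 6 samples, beside 40.9% of all assays and 48.3% of pool B.

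The members without a signal below the ceiling were spread over the whole range of numbers. No amplification in any sample was seen for 29 of them: miR-1192, miR-1193, miR-1199, miR-1893, miR-1894-5p, miR-1898, miR-1899, miR-1900, miR-1902, miR-1906, miR-1931, miR-1933-3p, miR-1933-5p, miR-1934, miR-1936, miR-1946a, miR-1951, miR-1952, miR-1957, miR-1959, miR-1962, miR-1963, miR-1964, miR-1965, miR-1966, miR-1967, miR-1970, miR-2136 and miR-2139. The other 5, miR-1194, miR-1195, miR-1942, miR-1956 and miR-1961, gave a late signal in at least 1 sample. miR-1961, with the let-7 seed, was at Ct 40, 39.5 and 35.5 in WT and 40, 40 and 35.2 in KO. Its abundant seed relative let-7i was at Ct 21.3, 20.8 and 19.7 in WT. By name, none of the samples gave a signal below the ceiling for 5 of 9 members from miR-1186 to miR-1199, 4 of 8 up to miR-1899, 3 of 6 up to miR-1926, 20 of 44 up to miR-1971 and 2 of 7 above it.

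A further 14 members were below the ceiling in at least 1 sample but in all 3 samples of neither group, and were not tested. Most of these signals came and went within a group. miR-1188, miR-1927, miR-1945 and miR-1947 were each seen in 1 WT sample and in no KO sample. miR-1935 was likewise seen in 1 WT sample, and miR-1941-3p in 1 KO sample. miR-1191 was at Ct 28.5 in WT replicate 2 and 30.9 in KO replicate 2 and did not amplify elsewhere, and miR-1940 had the same pattern at Ct 32.0 and 30.4. miR-1186 was at Ct 32.0 and 29.5 in 2 WT samples and 32.5 in KO replicate 1, and at 40 in the rest. miR-1938, miR-1958 and miR-1903 were seen in 2 WT samples each and in 1, 2 and 2 KO samples. The clearest WT signal of this kind was that of miR-1950, at Ct 35.01, 33.2 and 32.3 in WT and 40 in all KO samples. miR-1968 was below the ceiling in 2 WT samples, at Ct 34.2 and 34.7, and in no KO sample.

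The remaining 26 members (35.1% of 74, against 47.3% of all assays) were seen in every WT sample or in every KO sample, or both, and were tested. The log2 relative abundance is the mean Ct of the pool B controls minus the Ct of the assay, with later Ct values set to 35, so that -1 means 2-fold less. A sample at the ceiling enters at Ct 35, so a fitted difference that rests on such samples depends on the ceiling and is not a bound. KO and WT were compared with limma across all 282 tested assays of the panel, with p values adjusted over all of them and a threshold of 0.05.

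**Figure D1:**
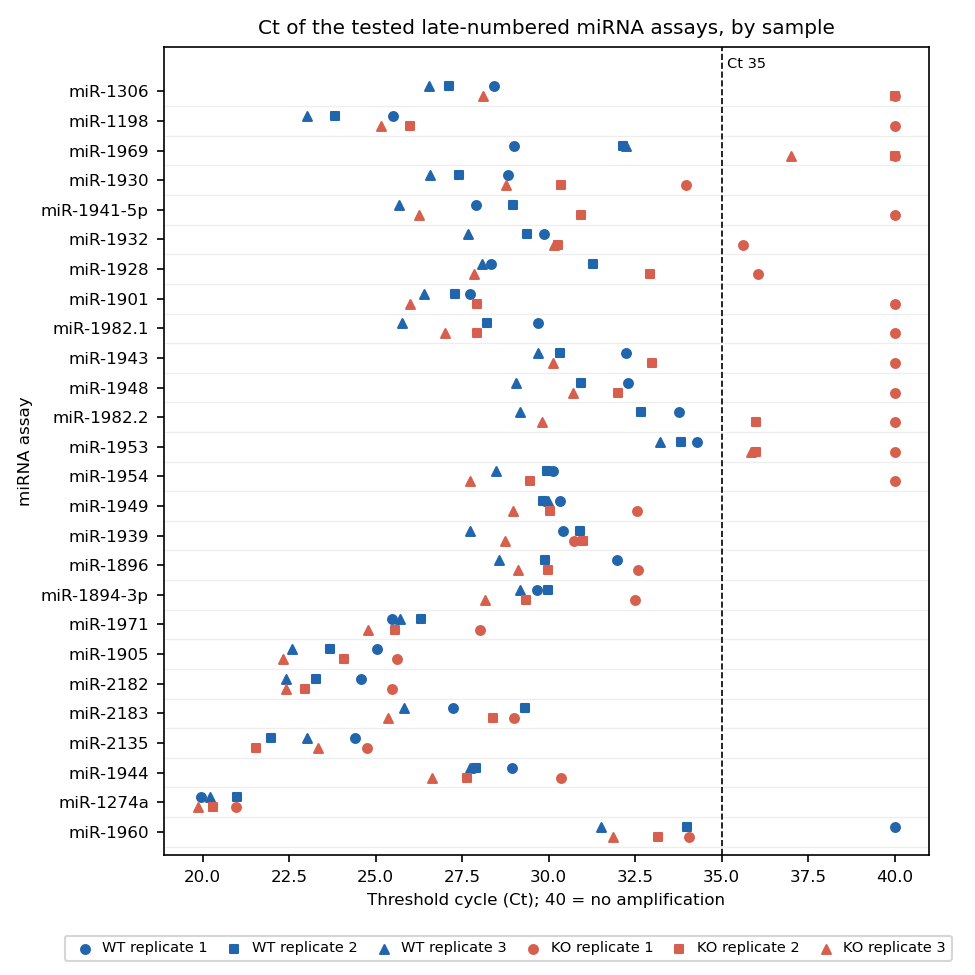
Threshold cycle (x axis, where later means less RNA) of the 26 tested late-numbered miRNAs (y axis, ordered by the KO minus WT difference), with 1 symbol per sample in blue for WT and red for KO and a dashed line at the ceiling of Ct 35. From miR-1949 down to miR-1274a the KO and WT symbols overlap, while many of the upper assays have KO replicate 1 (red circle) at Ct 40.

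Of the 26 tested members, 3 fell past the threshold: miR-1306, miR-1930 and miR-1932. None rose. Over the whole panel 105 of 282 assays (37.2%) were lower and 1 (0.355%) was higher. The median difference of the 26 members was -0.79 on the log2 scale, against -1.91 over all tested assays, and 16 members had a negative difference and 10 a positive one. These figures carry no support of their own, since 13 members were admitted through WT alone, having a KO sample at or past the ceiling, and all 13 were negative, among them miR-1306 and miR-1932 (74 of 76 such assays of the panel were negative). With the ceiling, KO was lower without overlap in 4 members (miR-1306, miR-1198, miR-1930 and miR-1932). This was so for 59.9% of all tested assays and 44.2% of the tested pool B assays other than members. KO was higher without overlap in 0 members, against 1.06%. The count of 4 depends on the ceiling. For miR-1969 and miR-1953 every KO Ct was later than every WT Ct. Relative to the controls, however, KO replicate 1 at the ceiling (-12.9) stood above at least 1 WT sample in each. With the replicate number as a block, 3 members were lower again (41.8% of all tested assays). Of miR-1306, miR-1930 and miR-1932, only miR-1930 was among them. With WT replicate 1, 2 or 3 or KO replicate 2 left out, 0 members passed, and 3, 4, 3 and 4 assays of the whole panel did. The median of the members was -0.42, -1.15 and -0.54 without WT replicate 1, 2 or 3, and -0.29, -0.15 and -1.11 without KO replicate 1, 2 or 3. It was -0.11 with the ceiling at Ct 33 and -0.074 with wells at Ct 40 left out, while the panel median was -1.81 and -1.75. With no ceiling the order was reversed, at -2.53 for the members and -2.08 for the panel. With the global mean as reference the 2 medians were close, at -0.14 and -0.20. The contrast with the panel thus depends on how late wells and the reference are handled.

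No ceiling enters for the 12 members measured in all 6 samples. Of these, 1 fell and the other 11 had differences within 0.5 of 0 on the log2 scale, with a median over the 12 of 0.17. Over all 201 assays measured in all 6 samples the median was -1.82, and 84 (41.8%) were lower. KO was lower without overlap in 1 of the 12, against 64.7% of the 201 and 40.8% of pool B assays other than members so measured. Assays of pool B other than members lay in between: 49 were measured in all 6 samples, with a median of -0.74, 16 within 0.5 of 0 and 9 (18.4%) lower. Of all 77 tested pool B assays other than members, 18 (23.4%) were lower, with a median of -1.35. The requirement of a signal in all 6 samples itself leaves out miRNAs that were low in WT and fell in KO. The 14 tested members measured in fewer than 6 samples had a median of -1.86, with 13 of 14 negative. Over the 81 such assays of the panel the median was -2.37. The 13 negative members were those admitted through WT alone, which favours a negative sign, so the median of the 14 carries no support of its own. The values near 0 describe the 12 and not the members as a whole.

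**Figure D2:**
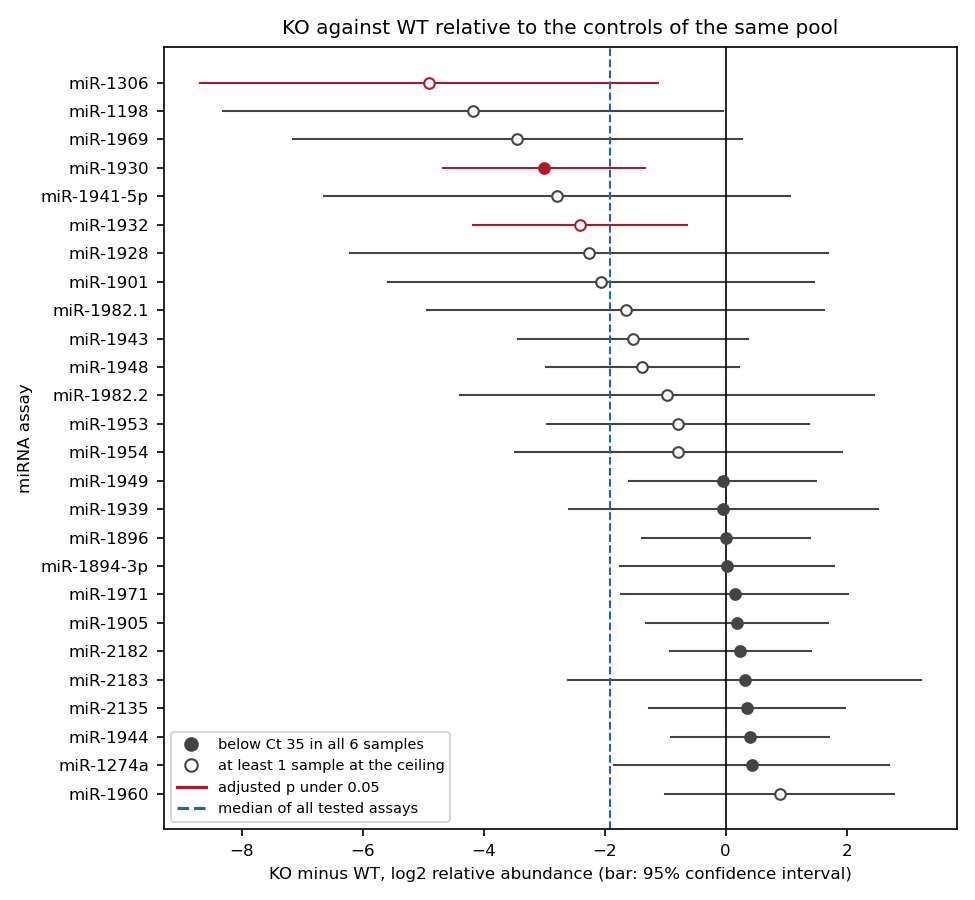
Difference in log2 relative abundance, KO minus WT (x axis), for the 26 tested members (y axis), with bars for the 95% confidence interval from limma. Filled points were below Ct 35 in all 6 samples, open points had at least 1 sample at the ceiling, red marks the 3 assays past the threshold and the dashed line is the median of all 282 tested assays, -1.91. The lowest 12 points of the plot lie between -0.05 and 0.90.

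miR-1930 gave the most complete picture of a fall. Its Ct values were 28.8, 27.4 and 26.6 in WT and 34.0, 30.4 and 28.8 in KO. On the log2 scale against the controls its WT values were -7.76, -8.11 and -7.58 and its KO values -11.8, -11.1 and -9.50, so that the groups did not overlap and every KO sample was below its same-number WT sample. It fell 8.00-fold (log2 -2.999 ± 0.70, SE, n = 3 per group, 95% interval -4.67 to -1.33, limma adjusted p = 0.0312, 0.042 with the replicate block). This interval held the panel median. The adjusted p was 0.108, 0.1, 0.0697 and 0.0605 without WT replicate 1, 2, 3 or KO replicate 2, with differences from -3.15 to -2.86. In the authors' deposited table of folds KO was 0.154 of WT for this assay.

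miR-1306, whose hairpin lies within Dgcr8, had the largest difference of the members. It was at Ct 28.4, 27.1 and 26.6 in WT and at 40, 40 and 28.1 in KO, so that 1 KO sample was measured, and that sample too was below every WT sample relative to the controls (-8.84 against -7.81 to -7.34). With wells that did not amplify entered at the ceiling it fell, by a fitted log2 difference of -4.91 ± 1.60 (SE, n = 3 per group, 95% interval -8.70 to -1.12, limma adjusted p = 0.0487). The call was lost with the replicate block (adjusted p = 0.056) and without WT replicate 1, 2 or 3 or KO replicate 1 or 2 (0.12, 0.117, 0.0942, 0.124 and 0.0867). Leaving out KO replicate 2 gave a difference of -3.28, and leaving out KO replicate 3 one of -6.73. With the wells at Ct 40 left out as missing, so that KO rests on 1 sample, it was -1.27 (adjusted p = 0.22). With no ceiling it was -8.24 and did not pass (adjusted p = 0.0722).

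miR-1932 was at Ct 29.9, 29.4 and 27.7 in WT and 35.6, 30.3 and 30.2 in KO. Against the controls the KO samples (-12.9 at the ceiling, -11.0 and -10.9) lay below the WT samples (-8.78, -10.1 and -8.67). With KO replicate 1 entered at the ceiling it fell, by a fitted log2 difference of -2.41 ± 0.75 (SE, n = 3 per group, 95% interval -4.18 to -0.64, limma adjusted p = 0.0456, 0.0616 with the replicate block). Here the KO replicate 1 well did amplify, late. The adjusted p was 0.12, 0.1 and 0.112 without WT replicate 1, 2 or 3, and 0.0571 and 0.0683 without KO replicate 1 or 2, with a difference of -1.77 without KO replicate 1. It was 0.0638 with no ceiling and 0.056 with a trended, robust variance.

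miR-1198, from a hairpin within the span of Gripap1, was at Ct 25.5, 23.8 and 23.0 in WT and at 40, 26.01 and 25.2 in KO. In the 2 KO samples that amplified it lay at -6.75 and -5.88 relative to the controls, below the WT values of -4.43, -4.51 and -4.01. The difference over all samples was -4.18 ± 1.74 (SE, limma adjusted p = 0.0888) and so did not pass. It did not amplify in KO replicate 1, and with that sample left out the difference was -1.999, or 3.998-fold lower, and passed (adjusted p = 0.0314), as it did without KO replicate 3 (-5.49, adjusted p = 0.0463). The panel median without KO replicate 1 was -1.56.

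The tables that the authors deposited disagree on the name of this assay. For 563 of the 596 assays the relative quantities in the authors' deposited table follow from the Ct row of the same name, within 0.01 on the log2 scale in all 6 samples. For 33 they do not, and 8 of these are members: miR-1186, miR-1188, miR-1191, miR-1193, miR-1194, miR-1195, miR-1198 and miR-1274a. In the authors' deposited table the quantities that follow from the miR-1198 Ct row stand under miR-1195, and those from the miR-1274a Ct row under the passenger strand of miR-125b. The row named miR-1198 in the authors' deposited table of folds, with KO at 1.70 of WT, follows from a row without amplification in any sample. Names here are those of the Ct table. Which table carries the intended names was not tested, so the names of these 8 members are uncertain.

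miR-1969 and miR-1953 were below the ceiling in every WT sample and in no KO sample. Over all 596 assays 10 (1.68%) had this pattern and 0 the reverse. miR-1969 was at Ct 29.0, 32.2 and 32.2 in WT and at 40, 40 and 37.0 in KO. Its fitted difference was -3.45 ± 1.56 (SE, n = 3 per group, 95% interval -7.16 to 0.27, limma adjusted p = 0.11, 0.042 with the replicate block). WT replicate 1 stood apart at -7.91, against -12.8 and -13.2 in the other WT samples, and without it the difference was -1.74 (adjusted p = 0.237). KO replicate 1, which did not amplify, entered at the ceiling of -12.9, above WT replicate 3, so the ceiling bears on these values. With no ceiling the difference was -7.44 and passed (adjusted p = 0.0356). miR-1953 was at Ct 34.3, 33.8 and 33.2 in WT and at 40, 36.0 and 35.8 in KO, with a fitted difference of -0.79 (adjusted p = 0.517). These WT values lie within 2 cycles of the ceiling, and in KO replicate 1, with its late controls, the ceiling itself stood at -12.9, above all 3 WT values (-14.5 to -13.2). Without KO replicate 1 the difference was -1.75 (adjusted p = 0.0492), and with no ceiling -3.07 (adjusted p = 0.0356).

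In 7 tested members KO replicate 1 alone did not amplify while the other 5 samples were below the ceiling: miR-1198, miR-1901, miR-1941-5p, miR-1943, miR-1948, miR-1954 and miR-1982.1. This was so for 30 of the 282 tested assays of the panel. Entering that sample at the ceiling pulls each difference down, and all 30 were negative. The median of the 7 was -1.65, or -1.12 without KO replicate 1, beside -2.68 and -1.65 for the 30 assays. None of the 7 passed the test over all samples (limma, 1 of 7 at an unadjusted p under 0.05), against 7 of the 30 (23.3%, with 14 at an unadjusted p under 0.05).

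**Figure D3:**
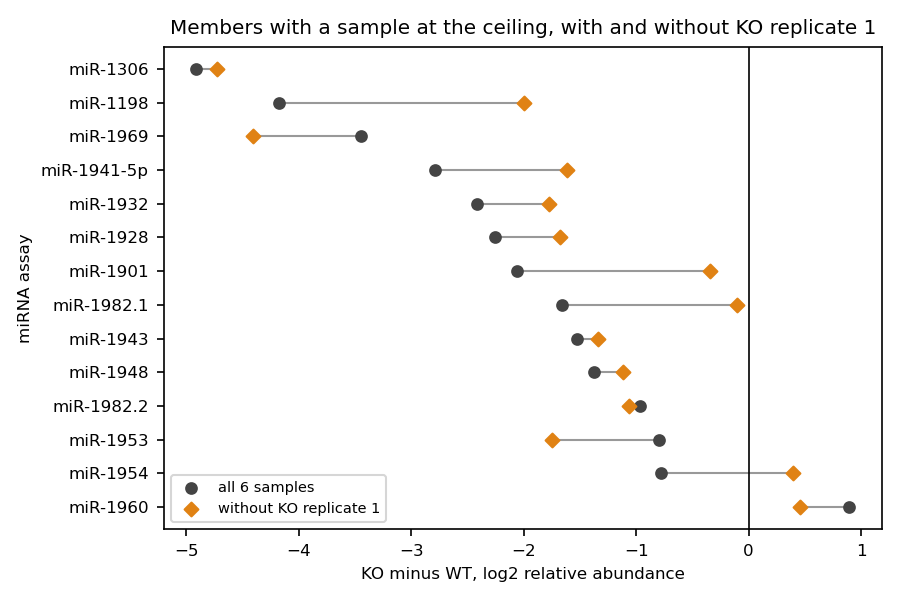
Difference in log2 relative abundance, KO minus WT (x axis), for the 14 tested members with at least 1 sample at the ceiling (y axis), over all 6 samples (grey circles) and without KO replicate 1 (orange diamonds). miR-1901 and miR-1982.1 move from -2.06 and -1.65 to -0.34 and -0.10, and miR-1954 changes sign.

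Within this set the other KO samples separated the assays. miR-1901 was at Ct 27.7, 27.3 and 26.4 in WT and at 27.9 and 25.98 in KO replicates 2 and 3. Its difference of -2.06 (adjusted p = 0.285) became -0.34 without KO replicate 1. miR-1954, from a hairpin within the span of the endoglin gene Eng, was at Ct 30.1, 30.0 and 28.5 in WT and 40, 29.5 and 27.7 in KO, with a difference of -0.78 (adjusted p = 0.613) that turned to 0.39 without KO replicate 1. For both, the measured KO samples overlapped the WT samples. miR-1943 was at Ct 32.3, 30.3 and 29.7 in WT and 32.99 and 30.1 in the KO samples that amplified (difference -1.53, adjusted p = 0.155). It passed without KO replicate 3 alone (-2.34, adjusted p = 0.0385).

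miR-1941-5p, whose KO samples reached from -12.9 to -6.98, differed by -2.79 (adjusted p = 0.185), or -1.62 without KO replicate 1 and -4.56 without KO replicate 3 (adjusted p = 0.0354). The opposite arm, miR-1941-3p, was seen in a single sample. miR-1948 was at Ct 32.3, 30.9 and 29.1 in WT and 40, 32.0 and 30.7 in KO, below the WT sample in each same-number pair. Its difference of -1.38 (adjusted p = 0.133) passed with the replicate block (0.049). miR-1928, with the seed of miR-221-3p and miR-222-3p, was at Ct 28.3, 31.3 and 28.1 in WT and 36.0, 32.9 and 27.8 in KO. Its groups overlapped widely (difference -2.26 ± 1.66, SE, adjusted p = 0.295), and the difference was -1.16 without WT replicate 1 and -3.82 without KO replicate 3 (adjusted p = 0.0583).

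The assays miR-1982.1 and miR-1982.2 stem from 1 hairpin, within the span of Oaz1, a gene for ornithine decarboxylase antizyme, and are not independent. The hairpin (chr10:80828797-80828870, plus strand) is printed with its mature arms in capitals and is shown for its first and last letters.
Mir1982 hairpin: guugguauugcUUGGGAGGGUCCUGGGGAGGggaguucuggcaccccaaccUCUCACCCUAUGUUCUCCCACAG
It begins with GU and ends with AG, the letters at the ends of most introns. Mirtrons, miRNAs whose hairpins are whole introns, skip Drosha but are cut by Dicer. Exon positions were not used here, so this is a description of its letters. miR-1982.1 was at Ct 29.7, 28.2 and 25.8 in WT and 40, 27.9 and 27.0 in KO, with a difference of -1.65 (adjusted p = 0.356) that was -0.10 without KO replicate 1. miR-1982.2 was later throughout, at Ct 33.8, 32.7 and 29.2 in WT and 40, 36.0 and 29.8 in KO (difference -0.97, adjusted p = 0.619). Neither separated KO from WT.

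The other end of the range held 11 members measured in all 6 samples at differences between -0.05 and 0.43. None passed the test (adjusted p from 0.594 to 0.982 for those other than miR-1896, at 0.996). The confidence intervals show how far this goes: the 95% interval lay wholly above the panel median of -1.91 for 9 of the 11. With miR-1960 this made 10 of the 26 tested members (38.5%). The share was 13.8% for the tested assays of the panel and 28.6% for the tested pool B assays other than members. miR-1960 was admitted through KO, and its WT values (-13.9, -14.7 and -12.5) lie near the ceiling, which leaves little room for a fall. Its place in this count therefore carries no support of its own. For miR-1939 and miR-2183 the interval held both 0 and the median. The sign of these small differences is not firm, since U6 alone as reference turned miR-1896, miR-1894-3p, miR-1971, miR-1905 and miR-2182 negative (-0.27 to -0.031).

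miR-2182 had the narrowest error of the members. It was at Ct 24.6, 23.3 and 22.4 in WT and 25.5, 23.0 and 22.4 in KO. Against the controls the WT values were -3.51, -3.97 and -3.42 and the KO values -3.32, -3.71 and -3.13, a difference of 0.24 ± 0.49 (SE, n = 3 per group, 95% interval -0.92 to 1.41, adjusted p = 0.717). The groups overlapped, and KO was above WT in each same-number pair.

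miR-1905, read from the minus strand within the span of Mex3a, a gene for an RNA-binding protein, was at Ct 25.0, 23.7 and 22.6 in WT and 25.6, 24.1 and 22.3 in KO, a difference of 0.19 ± 0.63 (SE, 95% interval -1.31 to 1.69, adjusted p = 0.825). miR-2135 was at Ct 24.4, 21.99 and 23.02 in WT and 24.8, 21.5 and 23.3 in KO (0.35 ± 0.68, SE, 95% interval -1.26 to 1.97). In both assays the ranges of WT and KO overlapped.

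miR-1274a was the earliest of the members, at Ct 19.9, 21.0 and 20.2 in WT and 21.0, 20.3 and 19.9 in KO, with a difference of 0.43 ± 0.96 (SE, 95% interval -1.84 to 2.70, adjusted p = 0.748). The sequence first given this name is known as a fragment of a lysine tRNA. Its difference was -0.24 without KO replicate 1 and -0.12 without WT replicate 2. miR-1971 was at Ct 25.5, 26.3 and 25.7 in WT and 28.01, 25.6 and 24.8 in KO (0.15 ± 0.79, SE, 95% interval -1.73 to 2.02). miR-1944 was at Ct 29.0, 27.9 and 27.7 in WT and 30.4, 27.6 and 26.6 in KO (0.41 ± 0.55, SE, 95% interval -0.90 to 1.72). For these 3 assays WT and KO values were interleaved.

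The assays of this kind with later Ct values gave differences of like size. miR-1896 was at Ct 32.0, 29.9 and 28.6 in WT and 32.6, 30.0 and 29.1 in KO, with a difference of 0.0045 ± 0.58 (SE, 95% interval -1.38 to 1.39). miR-1894-3p, within the span of Ppp1r10, a gene for a phosphatase regulatory subunit, was at Ct 29.7, 30.0 and 29.2 in WT and 32.5, 29.4 and 28.2 in KO (0.02 ± 0.74, SE, 95% interval -1.74 to 1.79). The opposite arm, miR-1894-5p, did not amplify in any sample. miR-1949, within the span of the non-coding gene Snhg4, was at Ct 30.3, 29.8 and 30.0 in WT and 32.6, 30.1 and 29.0 in KO (-0.05 ± 0.65, SE, 95% interval -1.59 to 1.499).

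The error was too wide to place the last of them. miR-1939 was at Ct 30.4, 30.9 and 27.7 in WT and 30.7, 31.0 and 28.7 in KO (-0.04 ± 1.08, SE, 95% interval -2.60 to 2.52). miR-2183 was at Ct 27.2, 29.3 and 25.8 in WT and 29.0, 28.4 and 25.4 in KO (0.31 ± 1.23, SE, 95% interval -2.60 to 3.23). In both, replicate 2 was the lowest sample of WT and of KO relative to the controls. miR-1960, within the span of Hadhb, a gene of mitochondrial fatty acid oxidation, was the only member admitted through KO. It was at Ct 40, 34.0 and 31.5 in WT and 34.1, 33.2 and 31.9 in KO, a fitted difference of 0.90 ± 0.80 (SE, 95% interval -0.999 to 2.79, adjusted p = 0.391).

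**Figure D4:**
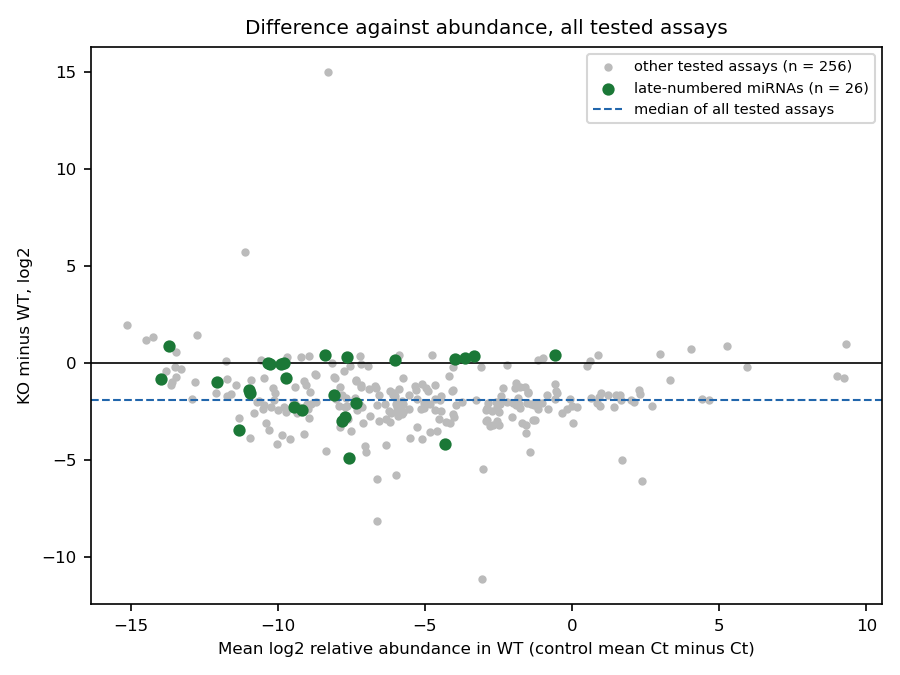
Difference in log2 relative abundance, KO minus WT (y axis), against the mean log2 relative abundance in WT (x axis) for all 282 tested assays, with the 26 late-numbered members in green, the other 256 in grey and the panel median of -1.91 as a dashed line. Members lie both near 0 and below the median line.

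By name, 1 of the 4 tested members between miR-1199 and miR-1900 fell (median 0.014) and 2 of the 14 from miR-1927 to miR-1971 (median -1.08). None of the 2 tested from miR-1900 to miR-1926, of the 5 above miR-1971 (median 0.24) or of the single one up to miR-1199 did. Where a hairpin energy is given, the predicted folds overlapped in stability between assays that fell and assays near 0. The comparison leaves out miR-1274a, miR-1939, miR-1944, miR-2135, miR-2182 and miR-2183, all near 0, which had no gene entry and no hairpin to fold. The minimum free energy was -37.5, -29.8 and -38.9 kcal/mol for the hairpins of miR-1930, miR-1306 and miR-1932, and -29.1, -35.8, -36.0 and -37.1 kcal/mol for those of miR-1905, miR-1896, miR-1894-3p and miR-1971. A hairpin was folded for 17 of the 26 tested members (16 hairpins), and the most stable of these, at -52.1 kcal/mol, was that of miR-1943. The energies were not scaled to hairpin length.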

How the data were processed

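The authors deposited, per the file headers, a table of threshold cycle scores (Ct, 596 miRNA assays, 10 control assays and 2 of a plant miRNA), a table of relative quantities as ratios to WT and a table of folds of KO over WT. Reverse transcription and preamplification used TaqMan kits, per the labels' protocols; the instrument and cycle software are not given in the sources used here. From its values, the deposited ratio was made with U6, snoRNA202 and snoRNA135 as reference, on a linear scale set to the geometric mean of WT, and counts wells at Ct 40 as if measured.

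Tests used the Ct table. Ct values at or above 35 were set to 35 and subtracted from the mean of the 5 controls of the same pool. Assays below 35 in all 3 samples of at least 1 group were fitted on genotype with limma 3.58.1 in R 4.3.3 (lmFit, eBayes, two-sided, Benjamini-Hochberg over 282 assays). The code was tested on simulated data. Deviations from the group means went together in samples of 1 number (correlations 0.23, 0.28 and 0.27; unlike numbers -0.28 to 0.01), so the numbers were taken, from the data, to pair the samples, and the fit with the replicate block is given where it changes a call. Every tested member is named with its values, every untested member seen below Ct 35 is named, and the rest are named without values, except miR-1961, described for its seed. Alternatives changed the ceiling, reference, filter, variance model, pairing and samples; leaving out wells at Ct 40 was added after seeing the data. Hairpins were folded with RNAfold 2.7.2, and sequences are RefSeq's (GRCm38.p6). Python 3.11.15, pandas 2.3.3, numpy 2.4.6 and matplotlib 3.10.9 were used. The members and lists were chosen with earlier results of these data known. The number of samples limits the precision, and input amounts were read from the controls.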

Additional observations from a re-analysis of the deposited data

How the results depend on the processing

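The number of members past the threshold was 3. It was 0 with the global mean as reference, without a reference and when assays below the ceiling in at least 1 sample were tested, and 1 when all 6 samples had to be below it. The number over the panel was 3, 2 and 3 under the first 3 of these. Leaving out 1 sample gave 0 to 6 members and 3 to 113 assays. The same count hid changes of name: with no ceiling miR-1930, miR-1953 and miR-1969 passed and miR-1306 and miR-1932 did not, and with a trended, robust variance the count was 2, without miR-1932. With the ceiling at Ct 33 miR-1306, miR-1930 and miR-1932 passed, and with wells at Ct 40 left out miR-1198, miR-1930 and miR-1932. The median of the members was -1.15 to -0.15 with 1 sample left out, -2.53 with no ceiling and 0.17 over assays measured in all 6 samples. The panel median with no ceiling was -2.08. With the replicate block 3 members passed (miR-1930, miR-1948 and miR-1969), miR-1306 and miR-1932 were lost, and no other call of a member changed. Differences near 0 changed sign without passing the test. With U6 alone they were -0.27 for miR-1896, -0.25 for miR-1894-3p, -0.13 for miR-1971, -0.085 for miR-1905 and -0.031 for miR-2182, and with 3 controls -0.012 for miR-1896. Without a reference they were -0.42 for miR-1896, -0.40 for miR-1894-3p, -0.28 for miR-1971, -0.24 for miR-1905, -0.18 for miR-2182, -0.12 for miR-2183, -0.074 for miR-2135 and -0.021 for miR-1944. The global mean gave 0.60 for miR-1949 and 0.61 for miR-1939, and leaving out wells at Ct 40 gave 0.39 for miR-1954. Leaving out 1 sample gave ranges of -2.22 to 0.38 for miR-1982.2, -1.80 to 0.39 for miR-1954, -0.41 to 0.46 for miR-1949, -0.90 to 0.86 for miR-1939, -0.27 to 0.40 for miR-1896, -0.42 to 0.64 for miR-1894-3p, -0.33 to 0.96 for miR-1971, -0.17 to 0.71 for miR-1905, -0.86 to 1.20 for miR-2183 and -0.24 to 1.29 for miR-1274a. The cause was not tested, except that the filters change how many assays are tested and the leave-outs how many samples. Signals near the ceiling limit the size of a fall that can be seen: for miR-1953 the WT signals lie within 2 cycles of the ceiling. For miR-1969 and miR-1953, KO replicate 1 entered at the ceiling above at least 1 WT sample.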

Other observations

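The disagreement of names between the deposited tables, described for 8 members, also touched assays outside this set. In the authors' deposited table of relative quantities the rows named miR-21 and miR-210 follow from each other's Ct rows, as do those named miR-32 and miR-320, and the row named miR-1 follows from the Ct row of miR-100. Of the members, the row named miR-1186 follows from the Ct row of miR-1188, miR-1188 from miR-1191, miR-1193 from miR-1194, miR-1194 from miR-1195 and miR-1195 from miR-1198. The rows named miR-1191 and miR-1198 follow from a row at Ct 40 in all samples, which the values do not identify. The row named miR-1274a follows from the Ct row of miR-1-2-AS.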
